A study of Mus musculus with 4 samples.

Results

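Histones are the proteins around which DNA is wound, and their genes were taken here as the rows of the single-cell expression table whose symbol begins with Hist1h, Hist2h, Hist3h, Hist4h, H2af, H3f3 or H1f. The rule found 73 of 16600 genes, 62 with a Hist prefix, called replication-dependent below, and 11 with the other prefixes, called replacement below. Among the 11, H3f3aos is annotated as an antisense RNA, encodes no histone and, with 58 UMIs, fell below the filter on low values described later. Among the 62, Hist1h2al is annotated as a processed pseudogene. Hist2h2bb.1 carries the symbol of Hist2h2bb with a suffix and has no annotated transcript. The division is by symbol alone.

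The cells were sorted as CD24+ CD45- from the cortex of C57BL/6J mouse fetuses at E18.5 and read with a 3′ droplet kit (10x Genomics, v2). The 2 genotypes were wild type and Setd5+/-, a heterozygous knockout carried by the Setd5-GFP transgenic mouse, with 2 fetuses each and 1 library per fetus. No group received an agent. Libraries are named by the prefix of their cell names, WT3 and WT6 for wild type and Het5 and Het9 for Setd5+/-. The level of a gene is its mean over the cells of a library in unique molecular identifiers (UMIs) per 10000 UMIs of the cell. Replicates are libraries, so p-values measure the spread between these fetuses and not between cells.

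The 4 libraries held 1453 to 1954 cells and 8205330 to 11742956 UMIs, and 224 cells, 56 in each library, carried barcodes found in all 4, with 44 more in 2 libraries and 9 in 3. Leaving the 224 out changed no member's call between cycling and other cells. Setd5 was lower in Setd5+/- libraries (0.54 and 0.586) than in wild type (1.18 and 1.07). Xist was at 20.6 and 21.5 in wild type and 0.152 and 0.31 in Setd5+/-, with Ddx3y at 0 and 0.000602 against 0.492 and 0.465, so genotype and sex cannot be told apart. Cd24a was found in 90.2% of cells and Tubb3, a neuronal tubulin, in 89.9%. The immune genes Ptprc, Cd74 and C1qb summed to 1.38 to 2.75 and the melanocyte genes Dct and Pmel to 1.19 to 1.67, so a few cells outside the gate were present. The globins Hbb-bs and Hba-a1 summed to 41.7 in Het9 and 11.4 in Het5, and the endothelial and mesenchymal pairs stayed under 0.04 in every library.

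Replication-dependent histones are made in bulk in S phase to package new DNA. Their messages end in a short stem-loop bound by the protein Slbp in place of a poly(A) tail. Replacement histones are encoded by polyadenylated messages, are made outside S phase as well, and carry out tasks such as marking promoters, DNA breaks or silent chromatin. A kit that primes on poly(A) therefore reads replication-dependent messages only in part, and UMIs of different members are not compared as amounts of message.

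The annotated transcripts show how the members differ at this end. The histone stem-loop, searched by its consensus of 16 bases on the transcript strand, was found in 71 of 141767 GENCODE M21 transcripts (0.0501%), 47 of them transcripts of members. It was present in 44 of the 61 replication-dependent members with an annotated transcript and in 1 of 11 replacement members, H2afx. The runs below give the stem-loop in capitals with 5 bases before it and 3 after, for the members whose values are followed here.
Hist3h2ba: ccaaaGGCTCTTTTCAGAGCCacc
Hist3h2a: ccaaaGGCTCTTTTCAGAGCCacc
Hist1h1e: ccaaaGGCTCTTTTCAGAGCCacc
Hist1h1c: caaaaGGCTCTTTTCAGAGCCacc
Hist1h2ae: acaaaGGCTCTTTTCAGAGCCatt
Hist1h2ap: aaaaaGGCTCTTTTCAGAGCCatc
Hist1h4i: ttaaaGGCCCTTTTTAGGGCCacc
Hist1h4d: ccaaaGGCCCTTTTCAGGGCCact
H2afx: acaaaGGCCCTTTTAAGGGCCacc
The commonest form, shared by Hist3h2ba, Hist3h2a, Hist1h1e, Hist1h1c, Hist1h2ae and Hist1h2ap above, was that of 25 members. The annotated transcript ran on after the stem-loop for 3 bases in Hist1h2ap, 151 in Hist1h2ae, 169 in Hist3h2ba, 330 in Hist1h4i, 770 in Hist1h4d, 822 in H2afx, 840 in Hist1h1c, 1153 in Hist1h1e and 1643 in Hist3h2a. No match was found in the annotated transcripts of Hist1h1b or Hist1h2bc, which says only that these letters are not in those models.

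Members with a longer annotated end held more of the UMIs. The 22 replication-dependent members with at least 100 annotated bases after the stem-loop held 39692 UMIs in all and a median of 146, and 7 of them passed the filter on low values, a mean of at least 0.1 over the libraries. The 22 with fewer than 100 bases held 4244 UMIs and a median of 57.5, and 1 of them passed, Hist1h2ap. The hexamer AATAAA stood in the last 50 bases of 12 members, among them Hist3h2ba, Hist3h2a, Hist1h2ae and Hist1h1c, which together held 34582 UMIs, while the other 49 with a transcript held 14607. This is a description of annotation against counts, with no test, and Hist3h2ba alone gave 21803 UMIs and Hist3h2a 9212.

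**Figure D1:**
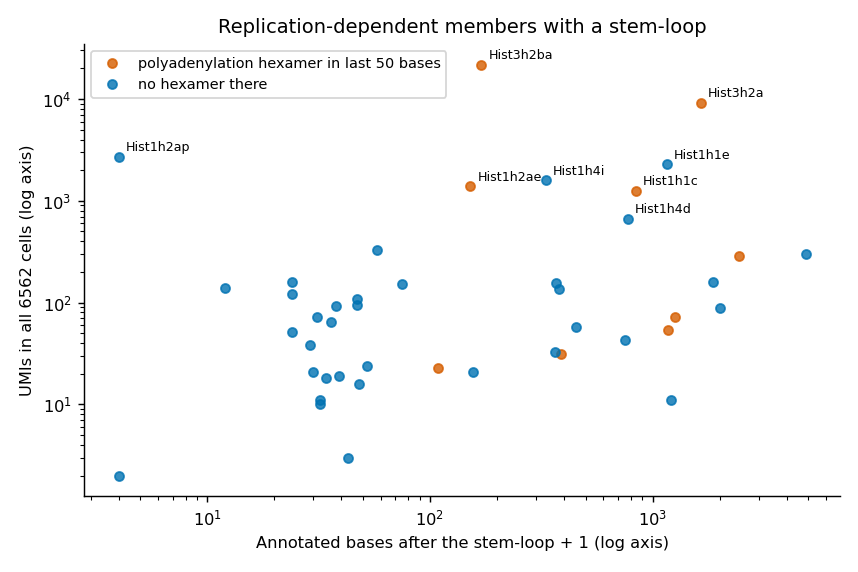
UMIs of each replication-dependent member with a stem-loop over all 6562 cells (y axis, log) against the bases its annotated transcript runs on after the stem-loop, plus 1 (x axis, log), coloured by whether a polyadenylation hexamer lies in the last 50 bases. Hist3h2ba and Hist3h2a stand highest with 21803 and 9212 UMIs, and Hist1h2ap stands apart on the left with 2701 UMIs and 3 bases after the stem-loop.

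Of the 73 members, 20 passed the filter, 10 of each class. The 10 replication-dependent ones held 665 to 21803 UMIs each. By core type, 3 of 5 linker H1 genes, 3 of 16 H2A, 2 of 16 H2B, 0 of 12 H3 and 2 of 13 H4 passed. No replication-dependent H3 gene was read at depth, and Hist1h3e led that type with 157 UMIs. Hist1h2ap has near-identical copies in its cluster, so its counts are uncertain between them.

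Cycling cells were taken as those with at least 1 UMI of Top2a, the topoisomerase that untangles DNA in S, G2 and M phase. They were 1278 of 6562 cells, 20.6% in WT3, 19.4% in WT6, 22.3% in Het5 and 15.1% in Het9, and Mki67, another proliferation gene, was at 2.23 to 2.87 in them and 0.113 to 0.156 in the rest. Their median depth was 7198.5 UMIs against 5422.5. The comparison asked which histone messages differ between cycling and other cells within a library, with limma on log2(level + 0.1), the library as a block and Benjamini-Hochberg adjustment over 8136 genes. Differences on this scale understate the change of low genes.

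The 10 replication-dependent members over the filter all passed the test, 7 higher and 3 lower in cycling cells, and of 10 replacement members 8 were higher, 1 lower and 1 not called. Over all genes tested, 23.3% were higher and 37.7% lower, and the median log2 difference was -0.09. Of the 10 replication-dependent members, 4 (Hist1h1b, Hist1h2ae, Hist1h2ap and Hist1h4d) had a mean under 0.1 outside cycling cells and passed the filter only through the cycling cells, so their direction is partly set by the filter. Of the other 6, 3 were higher and 3 lower, with a median log2 difference of 0.26, and the 10 replacement members, each over the filter in both kinds of cell, had a median of 0.49. The 7 that were higher were all Hist1 genes, and the 3 that were lower were both Hist3 genes and Hist1h2bc.

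Hist1h2ap (chr13:21833026-21833507, minus strand), an H2A gene, was at 1.22 in WT3, 3.33 in WT6, 1.83 in Het5 and 4.62 in Het9 in cycling cells. In the other cells it was at 0.0242, 0.0637, 0.0446 and 0.0609. The 4 cycling values lay far above the 4 others, with a ratio of the means of 56.9 and a log2 difference of 4.10 (SE 0.16, adjusted p = 4.4e-13). A UMI of it was found in 51.0% of cycling cells and in 2.38% of the others, or 44.4% and 2.00% with every cell thinned to 3000 UMIs. Among the gates defined below, the share in cells without Top2a ran from 1.15% in pallial neurons to 5.62% in radial glia. Median depths there were 5530 and 6534. With thinned cells it ran from 0.749% in pallial neurons to 5.16% in the subpallial gate, with 4.03% in radial glia. Before thinning the subpallial gate was at 4.20%, with a median depth of 4377.

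Hist1h2ae, another H2A gene of chromosome 13, stood at 0.959, 1.54, 1.21 and 1.62 in the cycling cells of WT3, WT6, Het5 and Het9 and at 0.0389, 0.0495, 0.0391 and 0.0178 in the others (log2 difference 3.37, SE 0.11, adjusted p = 8.7e-14). The groups did not overlap. The nucleosome core also needs H4, and the H4 genes Hist1h4d (log2 difference 2.32, SE 0.08) and Hist1h4i (1.86, SE 0.08) were higher too. Hist1h4d was at 0.541 to 0.63 in cycling cells and 0.0284 to 0.0435 in the others, and Hist1h4i at 0.887 to 1.10 and 0.186 to 0.231.

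The linker H1 proteins bind the DNA between nucleosomes. Hist1h1b (H1.5, chr13:21779883-21780625) was at 1.23 in WT3, 1.50 in WT6, 1.53 in Het5 and 1.11 in Het9 in cycling cells, against 0.0403, 0.0194, 0.056 and 0.0212 elsewhere. Its log2 difference was 3.42 (SE 0.09, adjusted p = 3.3e-15), and no library overlapped. Hist1h1e (H1.4) was at 1.62 to 1.92 against 0.189 to 0.22 (2.67, SE 0.07), while Hist1h1c (H1.2) was at 0.489 to 0.77 against 0.252 to 0.367 (0.77, SE 0.11). The 3 linker genes thus ranged from a ratio of means of 39.2 for Hist1h1b to 9.07 for Hist1h1e and 1.95 for Hist1h1c.

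Opposite in direction were both Hist3 genes, an H2A and an H2B gene that lie side by side on chromosome 11. Hist3h2ba (chr11:58948920-58949533, plus strand) was at 2.82 in WT3, 2.52 in WT6, 3.01 in Het5 and 3.80 in Het9 in cycling cells and at 6.62, 6.36, 6.26 and 7.72 in the others. Hist3h2a (chr11:58954685-58956830, plus strand) was at 1.07, 0.938, 1.19 and 1.41 against 2.66, 2.62, 2.76 and 3.15. Each cycling value was below each other value, with log2 differences of -1.13 (SE 0.05, adjusted p = 8.5e-13) for Hist3h2ba and -1.22 (SE 0.05, adjusted p = 2.6e-12) for Hist3h2a. Hist1h2bc, an H2B gene of the Hist1 cluster, was at 0.546, 0.492, 0.628 and 0.51 against 0.676, 0.703, 0.67 and 0.593, and its ranges overlapped. Its call (log2 difference -0.24, SE 0.07, adjusted p = 0.0083) was lost without WT6 (adjusted p = 0.082) and turned to 0.29 when cycling cells were those with Mki67 and to 0.65 when they were those with 2 of 5 mitotic genes.

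**Figure D2:**
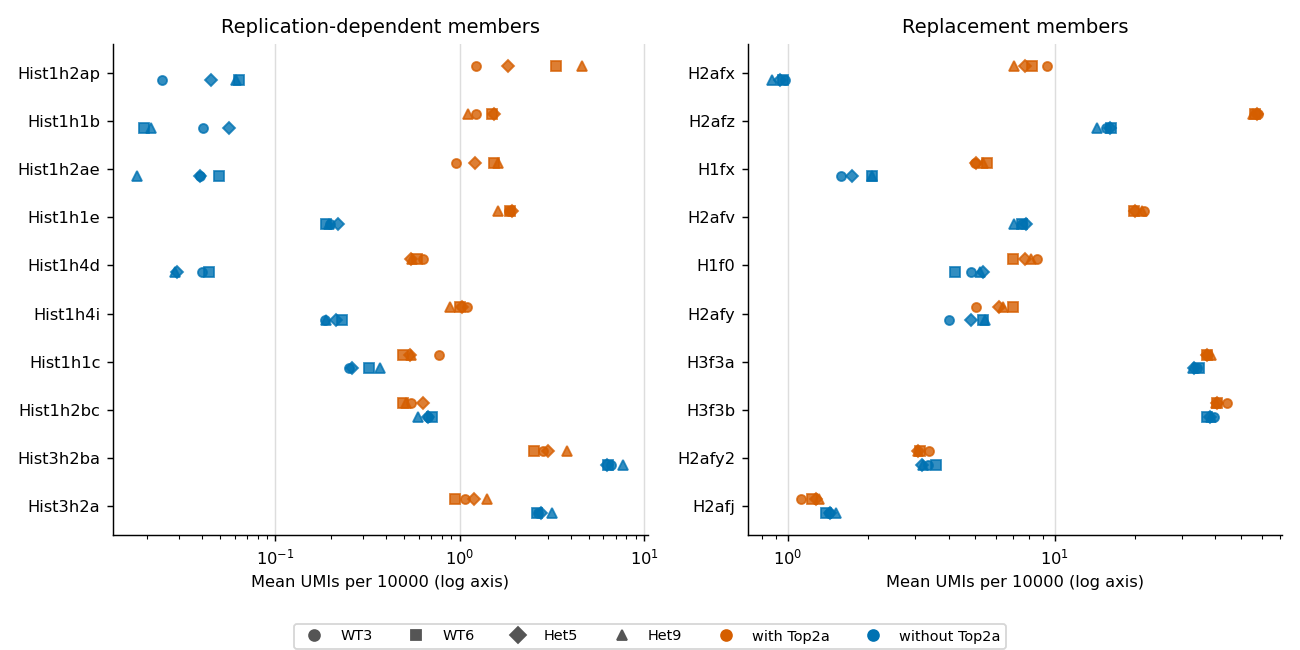
Level of each of the 20 members that passed the filter, as mean UMIs per 10000 (x axis, log), in the cells with Top2a (orange) and without (blue) of each library (marker shape). Hist1h2ap, Hist1h1b, Hist1h2ae, Hist1h1e and Hist1h4d show the widest gaps, and Hist3h2ba and Hist3h2a have the orange points on the left.

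The levels summed by locus show how far the pair weighed. The 49 Hist1 genes together were at 1.75 ± 0.113 (SD, n = 4) in other cells and 12.5 ± 1.33 in cycling cells, with ratios of 6.56 to 8.40 in the 4 libraries. The 10 Hist2 genes had ratios of 3.40 to 3.89 and the single Hist4 gene 1.37 to 2.00. The 2 Hist3 genes had ratios of 0.386 to 0.479, at 9.54 ± 0.9 in other cells. With all 62 replication-dependent genes summed, the ratio was 1.39 to 1.58, and without the Hist3 genes it was 6.10 to 7.83. The 16 H2B genes summed were lower in cycling cells (0.508 to 0.601) and the 16 H2A genes higher (1.61 to 2.63). Without the Hist3 pair the sum of the other 15 H2B genes was higher in cycling cells (1.34 to 1.52), as was that of the other 15 H2A genes (26.0 to 54.9). Hist1h2bc, with 2463 of the 3445 UMIs of those H2B genes, was on its own called lower, a call that other splits reversed. These sums are of UMIs read and not of amounts of message, and are descriptions with no test.

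Promoters of the members that moved oppositely were read from the RefSeq table (GRCm38.p6), which gave 17 of the 20 members a single entry. The stretches for Hist1h1b (chr13:21780576-21780875, minus strand) and Hist3h2a (chr11:58954435-58954734, plus strand) are printed with CCAAT, its reverse complement ATTGG, and TATAA in capitals, the letters of the CCAAT box and the TATA box.
Hist1h1b: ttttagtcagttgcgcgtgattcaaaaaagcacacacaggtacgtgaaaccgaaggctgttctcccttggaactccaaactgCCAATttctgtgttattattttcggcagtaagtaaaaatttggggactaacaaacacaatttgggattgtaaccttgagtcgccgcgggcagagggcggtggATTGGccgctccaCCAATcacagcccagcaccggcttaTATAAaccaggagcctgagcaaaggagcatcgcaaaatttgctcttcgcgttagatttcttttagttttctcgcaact
Hist3h2a: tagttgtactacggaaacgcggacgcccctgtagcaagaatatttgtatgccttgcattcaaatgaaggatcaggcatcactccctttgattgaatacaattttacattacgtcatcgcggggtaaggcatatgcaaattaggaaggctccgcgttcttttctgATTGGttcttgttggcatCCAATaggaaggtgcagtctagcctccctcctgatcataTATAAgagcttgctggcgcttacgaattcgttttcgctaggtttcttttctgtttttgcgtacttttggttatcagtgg
CCAAT on either strand was found in 7 of 8 replication-dependent and 6 of 9 replacement promoters, against 37.4% of the 32851 promoters in the table. TATAA on the gene's strand was found in 7 of 8 and 1 of 9, the latter H3f3b, against 17.5%. Both Hist3 promoters held both motifs, as did those of Hist1h1b, Hist1h2ae, Hist1h4d and Hist1h1e, so these letters did not set apart the Hist3 pair. Hist1h2bc, also lower, had no single entry and its promoter was not read. A match is a match of letters and not a bound site.

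Below the filter lay 52 replication-dependent members with 2 to 325 UMIs each, a median of 53.5, and 17 of them under 30. In 37 of the 52 all 4 cycling values lay above all 4 others, and in 1, Hist2h3c2, all 4 lay below, where 7.45% and 13.1% of 8435 genes under the filter did so. In the same fit run with no filter, 40 were higher and 1 lower, against 14.6% and 23.0% of 16571 genes. The 5 with the most UMIs were all among the 40. Hist2h2ac, an H2A gene, was at 0.211 to 0.361 in cycling and 0.00715 to 0.0243 in other cells, Hist1h1d (H1.3) at 0.262 to 0.313 and 0.00644 to 0.0284, and Hist1h1a (H1.1) at 0.187 to 0.336 and 0.0032 to 0.0163. Hist4h4, an H4 gene, and Hist2h2be, an H2B gene, had smaller log2 differences with no filter (0.35, SE 0.09, and 0.38, SE 0.10), with adjusted p = 0.016 for each. Hist1h3e, an H3 gene, was at 0.117 to 0.14 and 0.00897 to 0.0179.

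Hist2h3c2, also an H3 gene, ran the other way at 0.00551 in WT3, 0.00336 in WT6, 0.0138 in Het5 and 0.0058 in Het9 in cycling cells against 0.031, 0.0667, 0.0382 and 0.0314. It had 135 UMIs in all (log2 difference with no filter -0.40, SE 0.07, adjusted p = 0.0027). Its neighbour Hist2h3c1, with 54 UMIs, had a difference of -0.13 that missed the threshold (adjusted p = 0.097). All 52 low members summed to 2.98 to 3.44 in cycling cells and 0.372 to 0.541 in the others.

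Among the replacement members, H2afx and H2afz had the largest differences. H2afx encodes H2A.X, which is phosphorylated at DNA breaks, and is the replacement gene with a stem-loop. It was at 9.35 in WT3, 8.20 in WT6, 7.71 in Het5 and 7.05 in Het9 in cycling cells against 0.972, 0.953, 0.933 and 0.871, a log2 difference of 2.98 (SE 0.05, adjusted p = 6.3e-18). H2afz and H2afv encode the H2A.Z proteins, which sit at promoters. H2afz was at 55.4 to 57.9 against 14.3 to 16.3 (1.86, SE 0.02), and H2afv at 19.8 to 21.6 against 7.05 to 7.78 (1.45, SE 0.03). In none of these genes did the libraries' ranges overlap.

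The macroH2A gene H2afy, tied to silent chromatin, was at 5.07 to 6.96 in cycling cells and 4.02 to 5.46 in others (0.31, SE 0.03, adjusted p = 6.4e-07). Its ranges overlapped between libraries while each library on its own was higher in cycling cells. The other macroH2A gene, H2afy2, was at 3.06 to 3.38 and 3.19 to 3.59 and did not pass (-0.07, SE 0.04, adjusted p = 0.14), though it was called lower when Mki67 set the split (-0.13, adjusted p = 0.025). H2afj (H2A.J) was at 1.12 to 1.31 and 1.38 to 1.51 and was lower (-0.20, SE 0.05, adjusted p = 0.0032). Its call was lost when Mki67 or 2 of 5 mitotic genes set the split.

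H3.3, the replacement H3 that is laid down at active genes, is encoded by H3f3a and H3f3b. H3f3a was at 37.1 to 38.4 and 32.9 to 34.6 (0.16, SE 0.02, adjusted p = 5.6e-06) and H3f3b at 40.2 to 44.0 and 37.2 to 39.5 (0.11, SE 0.02, adjusted p = 1.1e-04). These were the smallest called differences among the replacement members. The replacement linker genes H1fx (H1.10) and H1f0 (H1.0) were higher by 1.46 (SE 0.05) and 0.67 (SE 0.04), at 5.01 to 5.59 against 1.58 to 2.07 and 6.97 to 8.56 against 4.22 to 5.36.

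Cycling cells differ from the rest in cell type as well as in phase, so the comparison was repeated within 3 gates set by marker UMIs, chosen after the pooled values had been seen. The radial glia gate took cells with Slc1a3 and none of Neurod6, Eomes, Dlx1, Dlx2 or Dlx5. The intermediate progenitor gate took cells with Eomes and no Dlx gene, and the subpallial gate took cells with at least 2 UMIs over the 3 Dlx genes and no Neurod6 or Eomes. They held 135, 136 and 674 cycling cells, with 15 in the radial glia gate of WT3.

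Hist1h2ap, Hist1h1b, Hist1h2ae, Hist1h1e and Hist1h4d were higher in cycling cells in each of the 3 gates, as were H2afx and H2afz. For the first 5 apart from Hist1h1e, the limit set by the filter holds here too. In the radial glia gate, where 2.09% of 8130 genes were higher and 0.209% lower, these 5 and these 2 were the members called. In the intermediate progenitor gate (7.81% higher, 7.91% lower) 7 replication-dependent members were higher and 2 lower, and 7 replacement members were higher. In the subpallial gate (14.3% higher, 21.8% lower) 6 were higher and 3 lower, with 7 replacement members higher and 2 lower, H2afy2 (-0.29, adjusted p = 0.0011) and H2afj (-0.28, adjusted p = 0.023). Hist1h1c was called higher in the intermediate progenitor gate (0.89, adjusted p = 0.034). It was not called in the radial glia gate (0.52, adjusted p = 0.53) or the subpallial gate (0.21, adjusted p = 0.44). Hist1h4i was not called in the radial glia gate (0.97, adjusted p = 0.10).

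Hist3h2ba and Hist3h2a were lower in the intermediate progenitor gate by 0.91 (SE 0.11) and 1.14 (SE 0.14) on the log2 scale and in the subpallial gate by 1.13 (SE 0.08) and 1.02 (SE 0.10). In the radial glia gate, where they were low in cells of both kinds, the differences of -0.55 (SE 0.16, adjusted p = 0.16) and -0.21 (SE 0.17, adjusted p = 0.62) missed the threshold. H2afx differed by 1.48 (SE 0.29) in the radial glia gate, where Het9 with 22 cycling cells was at 2.33 with and 2.18 without Top2a, by 2.32 (SE 0.11) in the intermediate progenitor gate and by 3.50 (SE 0.08) in the subpallial gate, and the differences between gates were not tested. H3f3a had -0.07 (adjusted p = 0.27) and -0.02 (adjusted p = 0.57) in the latter 2 gates, so its pooled difference was not found within either, while H3f3b was higher in both (0.18 and 0.29).

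**Figure D3:**
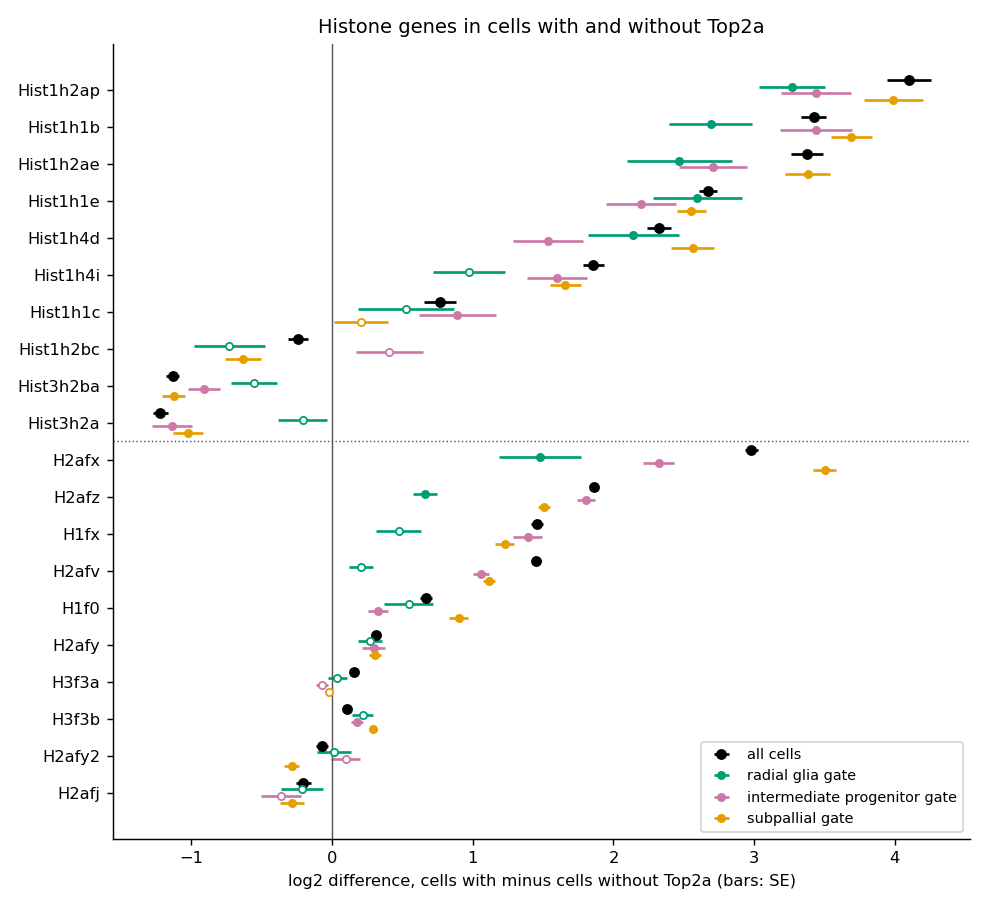
Log2 difference between cells with and without Top2a (x axis, bars SE) for the 20 members, over all cells (black) and within each gate (colours, open points not called). Replication-dependent members are above the dotted line. Hist3h2ba and Hist3h2a lie left of 0 in each setting, and H3f3a lies at 0.16 over all cells and between -0.07 and 0.04 within gates.

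Cells without Top2a were then compared between the pallial neuron gate (at least 2 UMIs of Neurod6 and none of Eomes, Slc1a3 or the Dlx genes, 1397 cells) and the radial glia gate (249 cells), which sets postmitotic neurons against glial progenitors. Of 8130 genes, 26.0% were higher in the neuron gate and 25.2% lower. Of the replication-dependent members 2 were higher and 4 lower, and of the replacement members 4 were higher and 5 lower, so both classes held genes of either direction.

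The 2 that were higher were again the Hist3 pair. Hist3h2ba was at 8.74 in WT3, 8.30 in WT6, 7.98 in Het5 and 9.70 in Het9 in the neuron gate and at 1.56, 2.41, 1.91 and 2.65 in the radial glia gate (log2 difference 2.00, SE 0.10, adjusted p = 4.9e-10). Hist3h2a was at 3.63, 3.67, 4.03 and 4.30 against 0.947, 0.935, 0.863 and 1.08 (1.92, SE 0.09, adjusted p = 4.2e-10). The neuron values stood clear of the glial ones in both. In the intermediate progenitor gate the pair was at 5.30 to 7.22 and 2.37 to 2.75, between the neuron and glial ranges.

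Both H3.3 genes were higher in the neuron gate, H3f3b at 39.8 to 44.5 against 21.7 to 22.4 (0.94, SE 0.04) and H3f3a at 32.6 to 34.7 against 21.2 to 24.7 (0.53, SE 0.05). H2afy2 (0.80, SE 0.08) and H1f0 (0.28, SE 0.07) were higher too. The members lower in neurons were H2afz at 9.73 to 10.7 against 31.7 to 40.7 (-1.86, SE 0.07), Hist1h4i (-1.79, SE 0.19), Hist1h2bc at 0.335 to 0.497 against 1.07 to 2.13 (-1.67, SE 0.17), H2afv (-1.30, SE 0.06), H2afx (-0.85, SE 0.12), H1fx (-0.82, SE 0.09), Hist1h1b (-0.81, SE 0.17), Hist1h2ap (-0.53, SE 0.19) and H2afy (-0.21, SE 0.06). Hist1h1b was at 0 to 0.034 in neurons and 0.0624 to 0.134 in radial glia, and Hist1h2ap at 0 to 0.0318 and 0 to 0.194. Both lay near the floor and passed the filter only through the cycling cells, which are left out here. The call of Hist1h2ap was lost without WT6 (adjusted p = 0.13), without Het9 (adjusted p = 0.18), with a pseudocount of 0.01 (adjusted p = 0.074), with a filter of 0.02 (adjusted p = 0.085) and with no filter (adjusted p = 0.20), and that of H2afy without Het5 (adjusted p = 0.068). Hist1h4d (-0.35, adjusted p = 0.059) was called lower with a pseudocount of 0.01, either other filter setting or summed UMIs (adjusted p from 0.024 to 0.048), Hist1h1e (-0.38, adjusted p = 0.13) with summed UMIs, thinned cells or without WT3 (0.027 to 0.049), and H2afj (-0.17, adjusted p = 0.23) without WT3 (0.048).

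**Figure D4:**
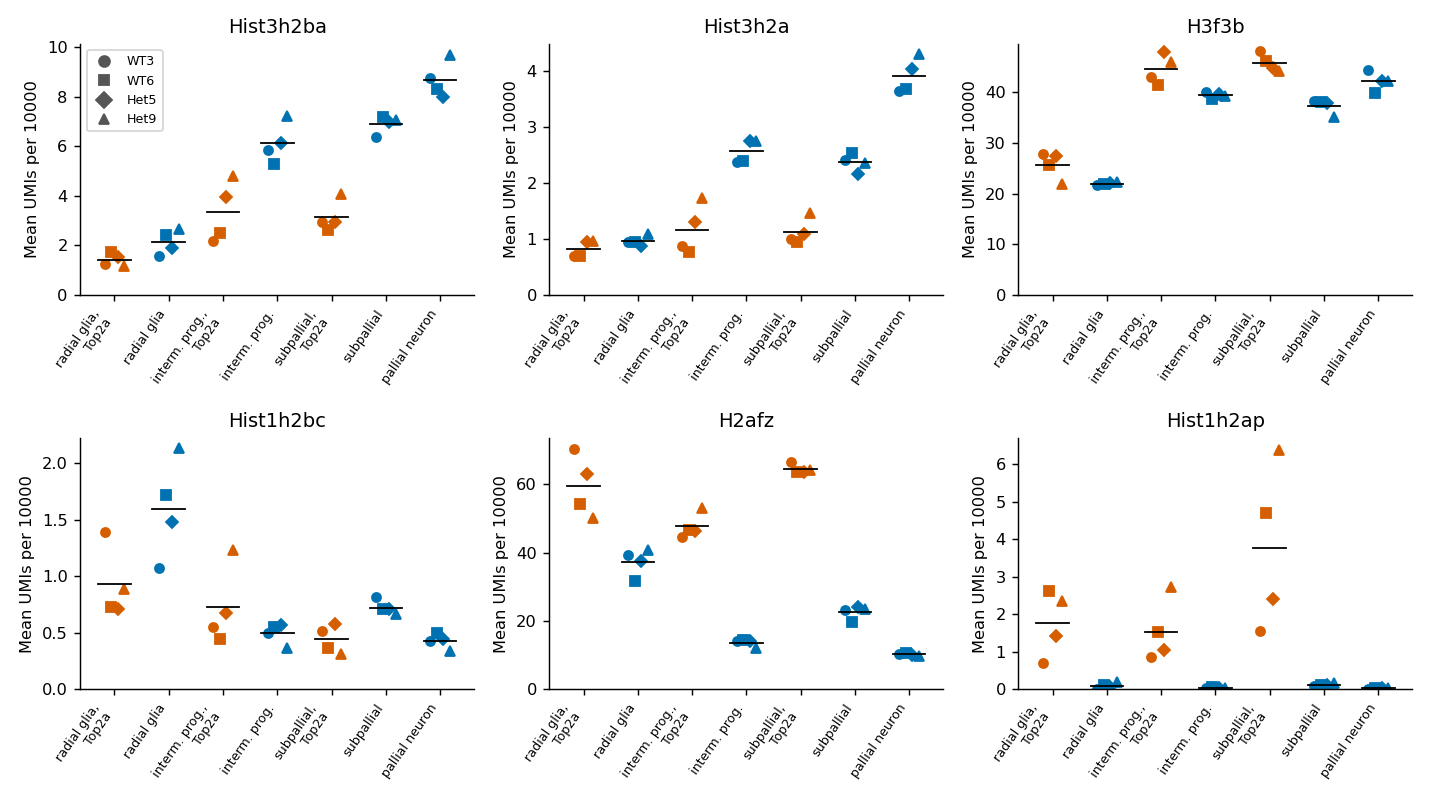
Level of 6 members (y axis, mean UMIs per 10000, from 0) in each gate, with cells with Top2a in orange and without in blue, a marker per library and a line at the mean of 4. Hist3h2ba goes from 2.13 in the radial glia gate to 8.68 in the pallial neuron gate among cells without Top2a, H2afz from 37.3 to 10.2, and Hist1h2ap is at most 0.194 in blue points.

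Top2a cells span S, G2 and M phase, so they were split by 12 S phase genes (such as Rrm2, Tyms, Uhrf1 and Hells) into 1039 with at least 3 UMIs over the list and 239 with fewer, at median depths of 7485 and 5674. The same threshold was reached by 1018 of the 5284 cells without Top2a. Their Hist1 genes summed to 2.01, against 14.4 in the 1039 Top2a cells and 1.69 in the cells without Top2a below the threshold. Whether those 1018 cells were in S phase was not tested. Of 8125 genes, 9.55% were higher and 8.46% lower in the 1039 Top2a cells than in the 239. Of the replication-dependent members 6 were higher and 3 lower. Hist1h2ap was at 1.50, 3.88, 2.15 and 5.72 in WT3, WT6, Het5 and Het9 against 0.285, 0.405, 0.227 and 0.717 (2.66, SE 0.15, adjusted p = 1.1e-12). Hist1h2ae (2.37), Hist1h1b (2.24), Hist1h4d (1.73), Hist1h1e (1.70) and Hist1h4i (1.12) were higher as well.

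The 3 lower ones were Hist1h2bc, at 0.314 to 0.534 against 0.99 to 1.26 (-1.32, SE 0.16, adjusted p = 9.9e-07), Hist3h2a (-0.95, SE 0.13) and Hist3h2ba (-0.92, SE 0.10). With cells thinned to 3000 UMIs and split again these 9 calls held, but the differences of 5 shrank by over 1.5 times, to 1.49 for Hist1h2ap, 1.27 for Hist1h2ae, 1.40 for Hist1h1b, 0.93 for Hist1h1e and 0.61 for Hist1h4d (adjusted p = 0.048). With no filter on low values the differences were the same, but the calls of Hist1h4i (adjusted p = 0.077), Hist1h2bc (adjusted p = 0.055), Hist3h2ba (adjusted p = 0.063) and Hist3h2a (adjusted p = 0.085) were lost. Of the replacement members 7 were also higher, but with thinned cells 2 were higher, H2afz (0.29, adjusted p = 8.9e-08) and H2afy (0.51, adjusted p = 6.8e-05), and H2afx turned from 0.60 to -0.44 (adjusted p = 7.1e-05), so of the 7 replacement calls those of H2afz and H2afy alone held with thinned cells.

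The genes that make, cut and place histones were described from lists, beside the same 23.3% and 37.7% of all genes. Of the S phase list 11 of 11 tested and of the G2 and mitosis list 10 of 10 were higher in cycling cells. Of 4 tested genes of histone gene transcription 3 were higher, Cdk2 (1.42), E2f1 (1.27) and Casp8ap2 (0.64), which encodes a component of the histone locus body. Of 9 tested genes of histone mRNA 3′ processing 3 were higher, 2 lower and 4 not called. Slbp, which binds the stem-loop, was at 2.67 in WT3, 3.16 in WT6, 3.10 in Het5 and 3.44 in Het9 against 0.724, 0.787, 0.76 and 0.709 (1.91, SE 0.06, adjusted p = 2.8e-14), with no overlap. Eri1, an exonuclease of the stem-loop, and Srrt were higher by 0.82 and 0.54, while Cpsf3, the endonuclease (-0.28), and Lsm10 of the U7 particle (-0.20) were lower.

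Chaperones that hand new histones to replicated DNA were higher in 11 of 12, led by Asf1b (2.57), Chaf1a (2.08), Mms22l (2.00) and Dnajc9 (1.79), with Tonsl lower (-0.37). Of 12 replication-independent chaperones 3 were higher, 3 lower and 6 not called, with Anp32e, which removes H2A.Z, at 5.40 to 5.75 against 1.94 to 1.98 (1.47, SE 0.04), Asf1a at 0.49, Ubn1 at 0.20, Ubn2 at -0.49, Vps72 at -0.20 and Atrx at -0.12. From the centromeric list, Cenpa (2.64), Hjurp (2.00) and Mis18a (2.00) were higher, and Cenpa is the centromeric H3 and falls outside the symbol rule.

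Between genotypes, limma called 0 of the 20 members over all cells, where it called 0.0860% of 8137 genes. It also called 0 in cycling cells (0.0737% of 8136 genes), 0 in other cells (0.0860%) and 0 for the interaction of genotype and cycling (0.0492%). At an unadjusted p under 0.05 the members numbered 0, 3, 1 and 2 in these fits, among 353, 333, 425 and 375 genes. The median log2 difference over all cells was -0.03 for both classes and -0.00237 for all genes.

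The members below that mark in cycling cells were the Hist3 pair and H2afx. Hist3h2ba, at the values per library given above, was higher in both Setd5+/- libraries by 0.33 (95% interval 0.10 to 0.57, adjusted p = 0.99), Hist3h2a by 0.34 (0.09 to 0.60, adjusted p = 0.99), and H2afx was lower in both by 0.24 on the log2 scale (-0.42 to -0.07, adjusted p = 0.99). Without Het9 the Hist3h2ba difference was 0.17, and without Het5 it was 0.49. In other cells H1f0 was higher by 0.23 (adjusted p = 0.86), and the interaction was 0.23 for Hist3h2ba (adjusted p = 0.68) and -0.19 for H1f0 (adjusted p = 0.97). For H3f3a, the interval over all cells was -0.15 to 0.06, and for Hist1h2ap -0.48 to 1.13, so the width differed widely among members.

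Hist1h2ap differed between libraries more than by genotype. In cycling cells it held 263 UMIs in WT3, 1022 in WT6, 559 in Het5 and 731 in Het9, which per 10000 UMIs is 1.31 (exact Poisson 95% interval 1.15 to 1.48), 3.55 (3.34 to 3.78), 1.92 (1.77 to 2.09) and 4.84 (4.50 to 5.21). These intervals cover counting error only. Each library differed from the next in order beyond its interval, and in the order WT3, Het5, WT6, Het9 each genotype held one of the lower and one of the higher libraries. As wide a log2 range between libraries in the level, the mean over cells, was found in 0.197% of the 8136 genes.

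Hist1h2ae was also lowest in WT3, and stood in the order WT3, Het5, WT6, Het9 at 1.03, 1.31, 1.57 and 1.62 per 10000 UMIs. The intervals of Het5, WT6 and Het9 overlapped, so the order of these 3 was not resolved. Ratios of highest to lowest are given for the levels, the means over cells, and not for these summed UMIs. That ratio was 1.69 for Hist1h2ae, and as wide a range of levels was found in 3.60% of genes. Hist1h1b (highest to lowest level 1.38), Hist1h1e (1.18), Hist1h4i (1.24) and Hist1h4d (1.16), read in the same cells, did not share the order WT3, Het5, WT6, Het9. The genotype difference of Hist1h2ap in cycling cells was 1.20 without WT6 and 1.15 without Het5, but -0.18 without WT3 and -0.14 without Het9. It thus rested on which library was left out. Each of these fits leaves 1 library in a group, so no p-value is given.

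**Figure D5:**
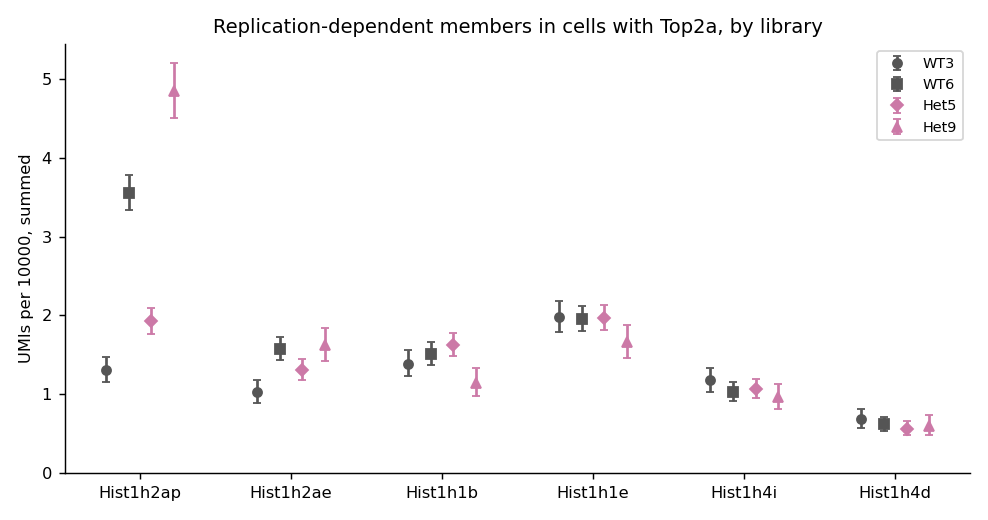
UMIs per 10000 of 6 replication-dependent members over the cells with Top2a of each library (y axis from 0, wild type grey, Setd5+/- pink), with exact Poisson 95% intervals as bars. Hist1h2ap runs from 1.31 in WT3 to 4.84 in Het9, while Hist1h1e runs from 1.66 in Het9 to 1.97 in WT3. Hist1h4d runs from 0.561 in Het5 to 0.681 in WT3.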

How the data were processed

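The single table the authors deposited holds natural log values, where each UMI count was scaled to 10000 per cell and had 1 added before the log. Cell Ranger 2.1, Seurat 2.3.0 and the build mm10 stand in the processing notes of the submitters. Which annotation, strand setting and cell filters were used is not given in the sources used here, and without strand a gene and its antisense partner cannot be told apart. The table holds fewer cells than the study states it captured. Prefixes of the cell names gave the genotype and no replicate number. Undoing the log gave whole UMIs for 100% of 14848520 values (tolerance 0.001), 1258 to 14996 UMIs per cell. Doublets were not called. Since the unit is a log value, no count model was used: limma 3.58.1 in R 4.3.3 (variance trend, Benjamini-Hochberg, threshold 0.05) was run on log2(library mean + 0.1), for genes with a mean of at least 0.1. Genes that define a split were left out of it. With few fetuses per genotype the precision rests on their spread.

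Members, lists and tests were chosen with earlier results of these data known. Named were all members over the filter, members below it that were called with no filter (given as counts with the highest by UMIs, and Hist2h3c1 added after its values were seen) or that led their core type, and up to 4 called genes per list, with genes that were lower added after their values were seen. A gene of the lists is not reported here. Stem-loops were searched in GENCODE M21 transcripts and promoters read from RefSeq, both on GRCm38, the build of mm10. Alternatives tried were a pseudocount of 0.01 or 1, dropping the filter or setting it to 0.02, each library left out, median centring, summed UMIs, shared barcodes left out, cells thinned to 3000 UMIs, other splits (2 Top2a UMIs, Mki67, 2 of 5 mitotic genes, 5 S list UMIs) and no library block, with the within-gate fits added later. The fits were tested on simulated data. Python 3.11.15 with pandas 2.3.3, scipy 1.17.1 and matplotlib 3.10.9 was used.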

Additional observations from a re-analysis of the deposited data

How the results depend on the processing

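No paired analysis was possible because the cell-name prefixes carry none of the replicate numbers of the labels, so that wild-type and Setd5+/- libraries could not be matched. Comparisons of cells within libraries had the library as a block, and in the comparison of cycling with other cells, where it was also left out, no call on a member changed. The counts of members called kept within 1.5 times of those reported under both other pseudocounts, median centring and the omission of shared barcodes, in all 7 fits.

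With no filter, 47 replication-dependent members were higher in cycling cells, 7 were lower in the neuron gate, and in the S phase comparison 0 were lower, with 2 replacement members higher. Over all genes that S phase comparison called 302, against 776 higher and 687 lower with the filter, so calls were lost beyond the members. With a filter of 0.02 the counts were 23 higher in cycling cells and 16 higher with S phase genes. More members were tested in these settings. In the S phase comparison the lower replacement members, 0 as reported, numbered 1 with summed UMIs, with thinned cells and at 5 list UMIs, and the higher ones numbered 2 with thinned cells. There, with thinned cells, H3f3a (-0.046), H1fx (-0.26), H2afx (-0.44), H2afv (-0.13) and Hist1h1c (-0.28) reversed, at 5 list UMIs H1fx (-0.024) and Hist1h1c (-0.039), and without Het5 Hist1h1c (-0.057, with 0.40 the highest on leaving out a library). The cause was not tested.

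In the cycling comparison Hist1h2bc turned to 0.29 with Mki67 and 0.65 with 2 of 5 mitotic genes, under which 0 replacement members were lower. Within gates, the counts that moved were 0 replication-dependent lower, 2 replacement higher and 0 lower (radial glia), 0 replacement lower (intermediate progenitor) and 2 replacement lower (subpallial). Reversed there were H2afy2 (0.014 radial glia, 0.096 intermediate progenitor), H3f3a (-0.074 intermediate progenitor, -0.023 subpallial) and Hist1h2bc (0.41 intermediate progenitor).

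Each library was also left out of the genotype fits, where the calls on Hist1h2ap and Hist3h2ba in cycling cells depended on the omission. Calls over all genes moved as well. These fits are given by their differences alone. With 1 library left in a group, that library is assumed to vary like the others. Over these omissions the genotype difference of Hist1h2ap ran from -0.23 to 0.88 over all cells and from -0.18 to 1.20 in cycling cells, lowest without WT3, and was also below 0 in cycling cells without Het9 (-0.14). That of Hist3h2ba over all cells ran from -0.047 without Het9 to 0.31 without Het5. With 2 of 5 mitotic genes the interaction of Hist3h2ba was -0.025. Of the 62 replication-dependent members, 52 had at most 325 UMIs, which limits the precision of their values.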
